A study of Mus musculus with 16 samples.

Results

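The stretches of the mouse genome described here carried a peak of histone H3 trimethylated on lysine 27 (H3K27me3) in both non-HFSC populations of the skin and in neither population of hair follicle stem cells (HFSCs). The members were chosen by their H3K27me3 peak calls: a member is a non-EA-HFSC peak that overlaps a non-LC-HFSC peak, by 1 bp or more, and overlaps neither an EA-HFSC nor an LC-HFSC peak. Of the 17488 non-EA-HFSC peaks, 2594 met this rule (14.8%), out of 219698 peaks in the 12 lists of the series. These members covered 9.58 Mb and are called non-HFSC regions below. The lists come from ChIP-seq of H3K4me3, H3K27me3 and H3K9me3 in cells sorted from back and belly skin of wild-type male CD1 x FVB mice, with 15 to 20 mice in a pool. The paper states that mice of both sexes went into most of its analyses and names no sex for the ChIP pools. EA-HFSCs were sorted as CD34+ / α6-integrin+ cells at postnatal days (PD) 22 to 25, in early anagen, and LC-HFSCs by the same gate at PD38 to PD44, in late catagen. The CD34- / α6-integrin+ cells of the same stages are the non-EA-HFSCs (nEA) and non-LC-HFSCs (nLC). Chromatin of each population was cut with micrococcal nuclease and split between the antibodies, and IgG served as background, so that the 3 lists of a population share their chromatin and their background. The authors pooled the reads of experimental replicates before they called peaks, which left 1 list for each mark in each population. No difference between populations could therefore be tested, and no p-value is given.

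H3K27me3 is laid down by Polycomb repressive complex 2 and is found over the promoters and bodies of developmental genes that are kept silent. H3K4me3 marks the start sites of active genes and also lies at many silent or poised CpG-rich promoters, where it can occur together with H3K27me3. In the hair follicle, bulge stem cells express transcription factors such as Sox9, Lhx2 and Tbx1, while the CD34-negative basal cells include interfollicular epidermis, the upper follicle and the progeny of the bulge. Each list averages over a sorted population. A mark carried by fewer cells and less of the mark per cell cannot be told apart, and H3K4me3 and H3K27me3 peaks at the same place in a list may lie on different cells.

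The lists differ in length, which bears on a rule that asks for the absence of a peak. The H3K27me3 lists held 25534 (EA-HFSCs), 1909 (LC-HFSCs), 17488 (non-EA-HFSCs) and 15273 peaks (non-LC-HFSCs). A region without a peak had too little enrichment to pass the authors' threshold at a read depth that the lists do not give, and this is not evidence that the mark was absent. The LC-HFSC list decided little here: without it the rule gave 2629 members. As a check of the sort, H3K4me3 lay at a transcript start of the basal keratinocyte genes Krt5, Krt14, Itga6, Itgb4 and Trp63 in all 4 populations. Cd34, the gene of the sorting marker, had H3K4me3 in both HFSC populations and in neither non-HFSC population. The other bulge genes checked, Krt15, Lgr5, Sox9 and Lhx2, had H3K4me3 at a transcript start in all 4 populations. Presence of a peak thus separated the gates at Cd34 alone. Among marker genes of other cell types, H3K4me3 lay at 4 to 10 of 14 fibroblast genes (10 in EA-HFSCs), 3 to 5 of 13 endothelial genes and 2 to 3 of 15 leukocyte genes, and the part of such cells in the results below was not tested.

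The sequences just upstream of 4 genes show the kinds of start sites that the non-HFSC regions cover. They are the 250 bases before the annotated gene start in mm9 (genome sequence NCBIM37, annotation GENCODE vM1), written 5′ to 3′ on the strand of the gene, with CpG dinucleotides in capitals. Cd34 is shown as the gene with H3K4me3 in HFSCs alone. Lgr5, Lhx2 and Tbx1 stand for bulge genes that carried H3K4me3 in HFSCs and in non-HFSCs as well, at the Lhx2 start in non-EA-HFSCs but not in non-LC-HFSCs.
Cd34 upstream, chr1:196764765-196765014, plus strand: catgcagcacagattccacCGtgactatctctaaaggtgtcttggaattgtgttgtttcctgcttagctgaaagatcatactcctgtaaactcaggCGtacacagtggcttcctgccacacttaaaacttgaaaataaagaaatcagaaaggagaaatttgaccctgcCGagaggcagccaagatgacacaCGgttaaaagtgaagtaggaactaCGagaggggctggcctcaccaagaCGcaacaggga
Lgr5 upstream, chr10:115024837-115025086, minus strand: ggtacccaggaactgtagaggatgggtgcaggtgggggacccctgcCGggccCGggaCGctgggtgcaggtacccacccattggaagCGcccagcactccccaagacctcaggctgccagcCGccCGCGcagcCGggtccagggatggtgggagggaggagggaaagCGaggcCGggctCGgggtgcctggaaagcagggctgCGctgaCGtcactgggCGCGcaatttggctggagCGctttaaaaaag
Lhx2 upstream, chr2:38194551-38194800, plus strand: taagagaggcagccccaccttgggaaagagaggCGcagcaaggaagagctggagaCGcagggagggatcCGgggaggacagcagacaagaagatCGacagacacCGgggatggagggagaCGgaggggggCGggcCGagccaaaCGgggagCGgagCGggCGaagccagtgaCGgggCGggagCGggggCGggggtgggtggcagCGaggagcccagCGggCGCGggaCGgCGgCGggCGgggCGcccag
Tbx1 upstream, chr16:18588114-18588363, minus strand: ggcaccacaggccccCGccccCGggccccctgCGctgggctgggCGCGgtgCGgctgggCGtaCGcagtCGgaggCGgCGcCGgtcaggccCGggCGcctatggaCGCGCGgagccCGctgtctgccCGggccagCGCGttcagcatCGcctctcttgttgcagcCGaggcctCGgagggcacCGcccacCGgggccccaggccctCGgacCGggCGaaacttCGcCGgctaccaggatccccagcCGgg
The Cd34 stretch held 6 CpGs, beside a median of 8.00 over the 22367 protein-coding genes. Lgr5 had 16, Lhx2 25 and Tbx1 32, and only 5.17% of all genes had as many as Tbx1.

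Scores and overlaps chose the members, so the following values describe them and test nothing. The score of a peak is its p-value as a negative log10, multiplied by 10. The non-EA-HFSC scores of the members ran from 40 to 1735 with a median of 100, beside a median of 79.6 for all non-EA-HFSC peaks and of 237 for the 5336 peaks that overlapped both a non-LC-HFSC and an EA-HFSC peak. The latter are called shared peaks below. The members measured 786 to 40765 bp, with a median of 3076 bp. On the non-LC-HFSC side the median of the highest overlapping score was 67.5, and non-LC-HFSC peaks covered a median of 49.3% of a member. In 2129 members the overlap was with a single non-LC-HFSC peak. With the non-EA-HFSC list cut by score into 10 equal bins, 8.81% of the peaks of the lowest bin were members, 23.5% of bin 8, and in the highest bin, where 91.8% of the peaks overlapped an EA-HFSC peak, 7.32%. The share of members was thus low at both ends of the score range.

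The edges of the rule were narrow in a minority of cases. The 3 members with the smallest overlap shared 2, 3 and 6 bp with a non-LC-HFSC peak. The 3 members closest to an EA-HFSC peak lay 1, 1 and 3 bp from it, and the 3 closest peaks outside the rule overlapped EA-HFSC peaks by 1, 2 and 10 bp. In all, 261 members lay within 1000 bp of an EA-HFSC peak and 724 within 5000 bp, and the median distance was 19558 bp. To the nearest LC-HFSC peak it was 326530 bp. Both the non-EA-HFSC and the non-LC-HFSC score reached 100 in 529 members.

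Most non-HFSC regions lay away from promoters, as did most non-EA-HFSC peaks. By the middle of the region, 1517 of the 2590 members on the autosomes, X or Y lay between genes (58.6%, 95% Wilson interval 56.7 to 60.5%), 868 in introns (33.5%) and 96 in promoters (3.71%, 3.04 to 4.51%), defined as 1000 bp before to 100 bp after a transcript start. Over all non-EA-HFSC peaks 58.7% lay between genes and 32.1% in introns, both close to the members. Shared peaks gave 50.9% and 32.7%. Over all non-EA-HFSC peaks the promoter share was 4.76% (4.45 to 5.08%), and over shared peaks it was 9.39% (8.64 to 10.2%). With all 4 H3K27me3 lists cut to scores of at least 100, the rule gave 946 regions with a promoter share of 8.79%. For the 529 members with both non-HFSC scores at that level it was 7.95%. Within 3000 bp of a protein-coding gene start lay 531 members (20.5%), beside 21.7% of all non-EA-HFSC peaks and 38.4% of shared peaks. Members made up between 10.5% of the non-EA-HFSC peaks of chromosome 14 and 19.7% of those of chromosome 15 among the autosomes.

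H3K4me3 peaks of EA-HFSCs were found at more of these regions than those of non-EA-HFSCs, while LC-HFSCs and non-LC-HFSCs differed little. An H3K4me3 peak of EA-HFSCs overlapped 575 of the 2594 members (22.2%, 20.6 to 23.8%) and one of non-EA-HFSCs 467 (18.0%, 16.6 to 19.5%). For the later stage the counts were 358 in LC-HFSCs (13.8%, 12.5 to 15.2%) and 383 in non-LC-HFSCs (14.8%, 13.5 to 16.2%). Over all non-EA-HFSC H3K27me3 peaks the shares were 18.5% and 9.40% in EA-HFSCs and LC-HFSCs, and 15.7% and 11.9% in the matching non-HFSCs. Over shared peaks they were 33.6% and 14.6%, and 29.1% and 20.8%, in the same order. Shared peaks thus lay close to the members in LC-HFSCs and above them in the other populations. EA-HFSCs exceeded non-EA-HFSCs in each of these sets. With all 4 H3K27me3 lists cut to scores of at least 100, the regions given by the rule had 43.1% in EA-HFSCs and 37.2% in non-EA-HFSCs. For the 529 members with both non-HFSC scores at that level the shares were 47.3% and 39.9%. The order of LC-HFSCs and non-LC-HFSCs depended on the length of the H3K4me3 lists, since the shares were 13.8% and 10.8% when every list was cut to its 14718 best peaks.

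Regions at gene starts carried H3K4me3 far more often than the others. Of the 531 members within 3000 bp of a gene start, H3K4me3 of EA-HFSCs met 367 (69.1%, 65.1 to 72.9%), that of LC-HFSCs 269 (50.7%, 46.4 to 54.9%), that of non-EA-HFSCs 330 (62.1%, 57.9 to 66.2%) and that of non-LC-HFSCs 282 (53.1%, 48.9 to 57.3%). The matching shares of all 3803 non-EA-HFSC peaks at gene starts were 58.6%, 33.3%, 51.4% and 40.4%. For shared peaks at gene starts they were 65.0%, 30.7%, 56.8% and 41.4%. The gap between members and shared peaks was thus widest in LC-HFSCs, where the intervals (46.4 to 54.9% and 28.7 to 32.7%) lay apart. In non-LC-HFSCs the intervals (48.9 to 57.3% and 39.3 to 43.6%) lay apart as well, and in both early anagen lists they overlapped. Of the 2059 members farther away, 10.1% had H3K4me3 in EA-HFSCs, 4.32% in LC-HFSCs, 6.65% in non-EA-HFSCs and 4.91% in non-LC-HFSCs, where all such non-EA-HFSC peaks gave 7.40%, 2.77%, 5.76% and 3.94%. Width moved with these shares: among members over 3000 bp the EA-HFSC share was 31.1% and among those of 1000 to 3000 bp it was 12.7%, and all non-EA-HFSC peaks of these widths gave 31.6% and 9.05%.

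**Figure D1:**
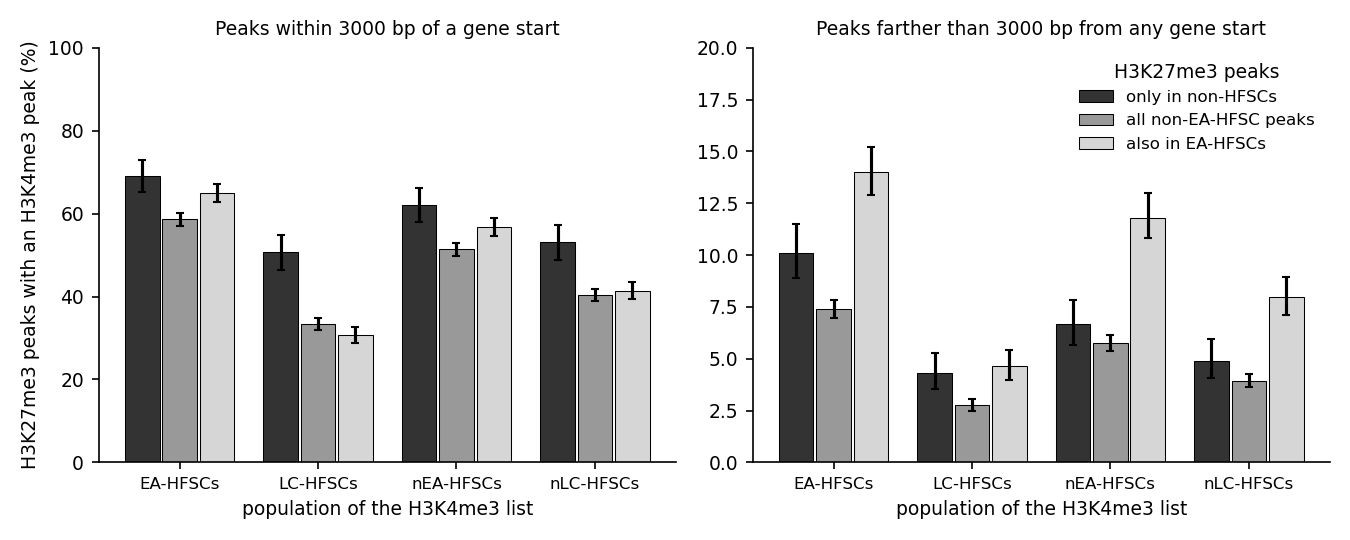
Share of H3K27me3 peaks that overlap an H3K4me3 peak (%, y axis) for each population's H3K4me3 list (x axis), at gene starts on the left and away from them on the right, with a different y scale in each panel. Bars are non-HFSC regions, all non-EA-HFSC peaks and shared peaks, and error bars are 95% Wilson intervals. At gene starts the LC-HFSC bar of the non-HFSC regions stands at 50.7%, above 30.7% for shared peaks. The non-LC-HFSC bar stands at 53.1%, above 41.4%.

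Region by region, H3K4me3 was mostly absent or present everywhere. In 1987 members (76.6%) no population had an H3K4me3 peak, beside 79.9% of all non-EA-HFSC peaks, in 607 (23.4%) at least 1 had one, beside 20.1%, and in 297 (11.4%, 10.3 to 12.7%) all 4 had one, beside 8.01%. In 105 members EA-HFSCs alone had a peak. Both HFSC populations and neither non-HFSC population had H3K4me3 in 20 members (0.771%, 0.500 to 1.19%), beside 0.440% of all non-EA-HFSC peaks. The opposite, H3K4me3 in both non-HFSC populations alone, was found in 4 members (0.154%, 0.0600 to 0.396%), beside 0.292%. With looser rules, 125 members (4.82%) had H3K4me3 in at least 1 HFSC population and neither non-HFSC population, beside 3.93%, and 29 (1.12%) the reverse, beside 1.50%. By stage, 135 (5.20%) had it in EA-HFSCs and not in non-EA-HFSCs, beside 4.26%, and 27 (1.04%) the reverse, beside 1.41%. In late catagen 55 (2.12%) had it in LC-HFSCs and not in non-LC-HFSCs, beside 1.27%, and 80 (3.08%) the reverse, beside 3.73%. Regions with H3K4me3 in both stem cell populations alone were thus few, at a share whose interval lies above 0.440%. Shared peaks gave 0.450%, but the 1338 of them that also overlapped an LC-HFSC peak gave 0.822% (0.460 to 1.47%). With the looser rules, 6.58% of shared peaks had H3K4me3 in at least 1 HFSC population and neither non-HFSC population, and 2.77% the reverse. Both shares were above those of the members, so H3K4me3 in stem cells alone was not particular to the members.

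Where all 4 populations had H3K4me3, the peaks covered more of the region in the stem cells. Over 297 regions the covered length had medians of 2202 bp (EA-HFSCs), 1814 bp (LC-HFSCs), 1535 bp (non-EA-HFSCs) and 1344 bp (non-LC-HFSCs). EA-HFSCs covered more than non-EA-HFSCs in 263 of the 297 regions (88.6%), and LC-HFSCs more than non-LC-HFSCs in 253 (85.2%). The same held for 84.9% and 81.6% of all non-EA-HFSC H3K27me3 peaks with H3K4me3 in all 4 populations, and of 87.0% and 82.4% of such shared peaks, so that peaks outside the rule had the same direction. Over the whole H3K4me3 lists, median peak widths were 2279 bp (EA-HFSCs), 2308 bp (LC-HFSCs), 1671 bp (non-EA-HFSCs) and 1794 bp (non-LC-HFSCs).

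Genes of bulge regulators were among those with a non-HFSC region at the start. A region lay within 3000 bp of the start (TSS) of 528 of the 22367 protein-coding genes (2.36%), of which 453 had no HFSC H3K27me3 peak in that window and 75 had one, outside the member itself. Of 17 bulge transcription factor genes, 6 had a non-HFSC region (35.3%, 17.3 to 58.7%), namely Foxc1, Gli2, Lhx2, Nfib, Sox9 and Tbx1. No gene of the 17 had an EA-HFSC or LC-HFSC H3K27me3 peak at the TSS, while 8 had a non-EA-HFSC peak and 7 a non-LC-HFSC peak. Of 16 genes for bulge surface or secreted proteins 4 had a region (25.0%, 10.2 to 49.5%), namely Cd34, Fgf18, Lgr5 and Sfrp1. With the threshold raised to a score of 100 in the H3K27me3 lists these counts fell to 2 of 17 and 2 of 16, and the share of all genes to 1.64%.

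Lhx2, a LIM homeobox factor needed for bulge stem cell maintenance, lay in the widest region. The member chr2:38194878-38235642 (mm9) spanned 40765 bp from just after the gene start, with a score of 97.3 in non-EA-HFSCs and 1836 in non-LC-HFSCs. A second member, chr2:38185562-38194810, covered the upstream side with scores of 845 and 700. H3K4me3 peaks covered 26534 bp of the wide region in EA-HFSCs, 18586 bp in LC-HFSCs, 12120 bp in non-EA-HFSCs and 7446 bp in non-LC-HFSCs. Within 5000 bp of the gene start they covered 7997 bp, 3429 bp, 2351 bp and 0 bp in the same order. Both HFSC populations were thus above both non-HFSC populations on either measure. The nearest EA-HFSC H3K27me3 peak was 32569 bp away, and a further member of 20630 bp, the fourth widest, followed 41820 bp from the gene start without H3K4me3 in any population.

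Sox9, Tbx1, Foxc1 and Gli2 kept broad H3K4me3 in all populations. At Sox9, which encodes a factor that specifies and maintains bulge cells, the region chr11:112639349-112650410 had scores of 69.7 and 350, and H3K4me3 covered 7867, 7400, 6551 and 5963 bp within 5000 bp of the start, given as EA-HFSCs, LC-HFSCs and then the 2 non-HFSC lists in the same order of stage. At Tbx1, a T-box factor gene, the regions chr16:18579250-18587187 and chr16:18587211-18592496 met near the start, with non-EA-HFSC scores of 911 and 752. H3K4me3 there covered 9408 bp in each HFSC population, 7773 bp in non-EA-HFSCs and 5545 bp in non-LC-HFSCs. At Foxc1, a forkhead factor of the quiescent bulge, the values were 9033, 7213, 6234 and 6233 bp. At Gli2, a transcriptional effector of Hedgehog signalling, they were 6496, 6262, 4120 and 3514 bp. In each of these genes both HFSC values lay above both non-HFSC values. Nfib, which encodes a nuclear factor I protein, had its region at the annotated gene start, where no population had H3K4me3, while another of its transcript starts had H3K4me3 in all 4.

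Among the surface and secreted markers, Cd34 stood apart by its sorting role. Its region chr1:196763506-196767396 had scores of 271 and 120, and H3K4me3 covered 5751 bp around the start in EA-HFSCs, 5704 bp in LC-HFSCs and 0 bp in both non-HFSC lists. Since CD34 defined the gate, this difference checks the sort. Lgr5, which encodes a receptor of the Wnt-enhancing R-spondins, had the region chr10:115020294-115028023 with scores of 683 and 205 and H3K4me3 over 5484, 5810, 3192 and 2668 bp in that order. Sfrp1, a secreted Wnt inhibitor gene, had 7931, 5909, 4430 and 2819 bp, and Fgf18, a ligand gene that holds follicles in telogen, 4183, 3849, 2572 and 2047 bp. None of these 4 genes had an HFSC H3K27me3 peak within 3000 bp of the start.

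**Figure D2:**
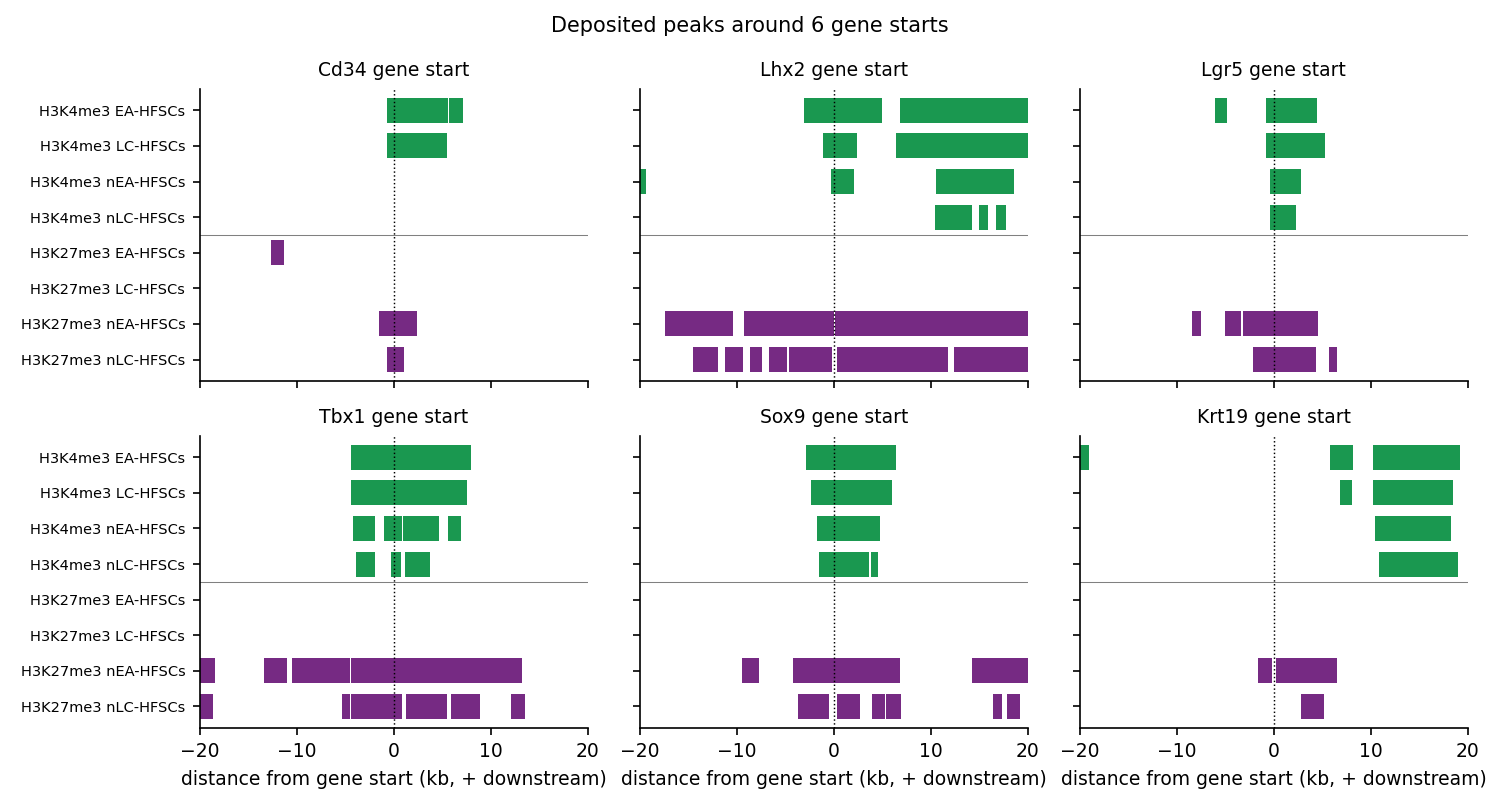
Deposited H3K4me3 peaks (green) and H3K27me3 peaks (purple) of the 4 populations around 6 gene starts, with the distance from the start in kb on the x axis and 1 row per list. Non-EA-HFSC H3K27me3 peaks lie over the Cd34, Lhx2, Lgr5, Tbx1 and Sox9 starts. Non-LC-HFSC peaks lie over the Cd34, Lgr5 and Tbx1 starts and on both sides of those of Lhx2 and Sox9, and at Krt19 the non-LC-HFSC peak begins 2811 bp inside the gene. The H3K27me3 rows of the HFSCs hold a single EA-HFSC peak upstream of Cd34.

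The list of genes upregulated in the bulge (GUB) from the study's supplementary data was examined next. Of 221 matched GUB genes, 56 had a non-HFSC region at the TSS (25.3%, 20.1 to 31.5%), beside 2.36% of all genes, and 55 of them had no HFSC H3K27me3 peak in the window. The count fell to 37 (16.7%, beside 1.64% of all genes) with H3K27me3 scores of at least 100, to 31 (14.0%, beside 0.921%) with that minimum for non-HFSC peaks alone, and to 32 (14.5%, beside 1.28%) with non-LC-HFSC peaks over at least 50% of the region. Any non-EA-HFSC H3K27me3 peak lay at 102 GUB genes and any EA-HFSC peak at 18. From IgG-normalized reads around the TSS, the study reported H3K27me3 that rose from EA-HFSCs to LC-HFSCs at a relatively large fraction of GUB genes. That is a different measure from peak calls, and the absence of a peak does not speak to it. Among genes with a non-EA-HFSC H3K27me3 peak at the TSS, 54.9% of the GUB genes (45.2 to 64.2%) had a non-HFSC region, beside 15.2% of all 3480 such genes. Of 99 genes downregulated in the bulge (GDB) 0 had a region, with an upper 95% Wilson bound of 3.74%, although 12 had a non-EA-HFSC peak. On the base of those 12 genes the upper bound was 24.2%. Of 422 constantly expressed genes 4 had a region (0.948%, 0.369 to 2.41%). Only 9 constantly expressed genes had a non-EA-HFSC peak, and of these the 4 made up 44.4% (18.9 to 73.3%). This interval overlaps that of the 54.9% of GUB genes. The GUB list was built by the study from microarrays of bulge cells, which are the cells of the HFSC gate. Chosen after their values were seen, its members included Igfbp5, Kitl, Ctgf, Fbln2 and Alcam, which encode a growth factor binding protein, the Kit ligand, a matricellular protein, a matrix fibulin and a cell adhesion molecule.

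H3K4me3 at the GUB genes with a region was wider in stem cells almost throughout. Within 5000 bp of the start, EA-HFSCs had more H3K4me3 cover than non-EA-HFSCs at 54 of 55 genes, with a median difference of 1629 bp, and LC-HFSCs more than non-LC-HFSCs at 54 of 55, with 1325 bp. GUB genes without a region showed it as well, at 147 of 150 and 138 of 146 respectively. For the 528 genes with a region, EA-HFSCs had more cover at 395 of the 431 with H3K4me3 in either list (91.6%, 88.7 to 93.9%), where all genes gave 79.4% and genes with a shared peak and no member 85.2% (83.3 to 86.9%). LC-HFSCs had more than non-LC-HFSCs at 296 of 379 (78.1%, 73.7 to 82.0%), where all genes gave 66.4% and genes with a shared peak 57.7% (54.6 to 60.7%). Outside the GUB list these shares were 90.7% and 74.7%. Between stages, EA-HFSCs had more cover than LC-HFSCs at 385 of 422 genes with a region (91.2%), beside 91.0% of all genes, and non-EA-HFSCs more than non-LC-HFSCs at 337 of 406 (83%), beside 81.7%, both close to the share over all genes.

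**Figure D3:**
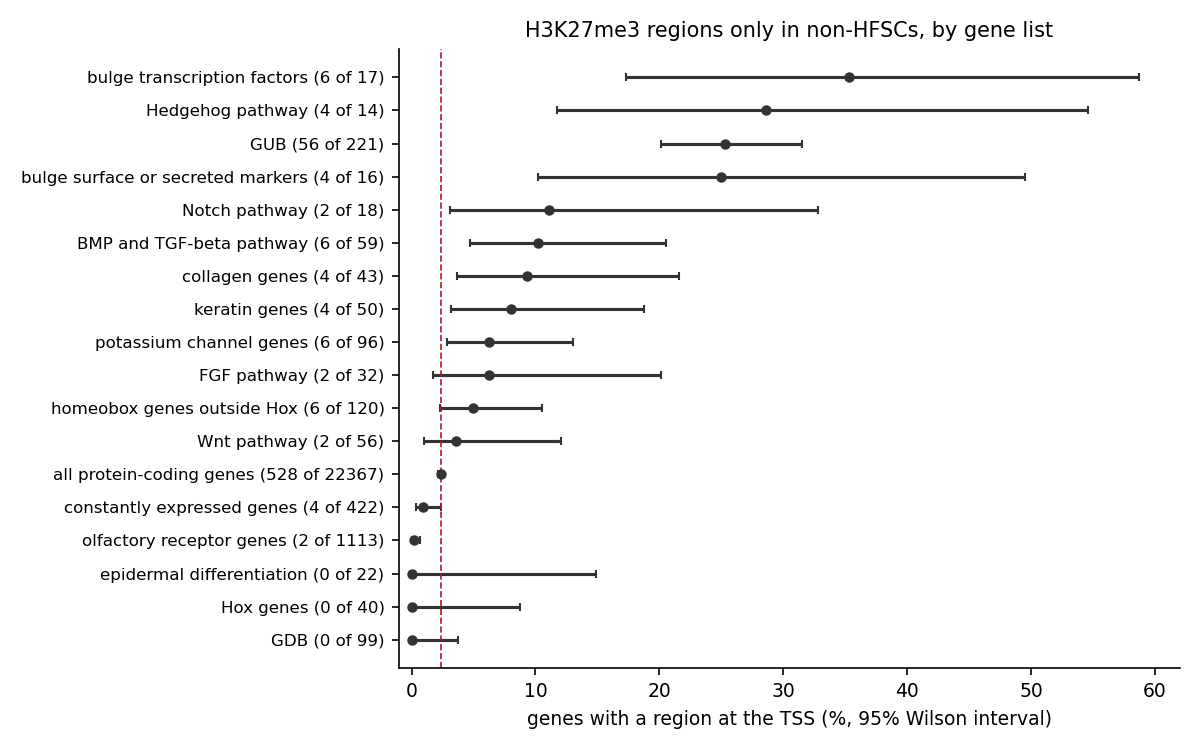
Share of the genes of each list that have a non-HFSC region within 3000 bp of the start (%, x axis), with 95% Wilson intervals and the counts beside each list name. The dashed line marks the 2.36% of all protein-coding genes, and the bulge lists, GUB and the Hedgehog list lie farthest to its right.

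Signalling genes with a region included ligands, receptors, antagonists and effectors. In the Hedgehog pathway, which drives follicle growth at anagen onset, 4 of 14 genes had a region (28.6%, 11.7 to 54.6%), beside 2.36% of all genes. Among them were the ligand gene Dhh, the receptor gene Ptch1, and Gli2. Of the 8 Hedgehog genes with a non-EA-HFSC H3K27me3 peak the 4 made up 50.0% (21.5 to 78.5%), beside 15.2% of all 3480 such genes. Of 59 genes of the BMP and TGF-beta pathway 6 had a region (10.2%, 4.74 to 20.5%), beside the same 2.36%. They were the secreted antagonist genes Grem1 and Fst, the ligand genes Gdf10 and Inhbb, Ltbp2, which encodes a latent TGF-beta binding protein, and the inhibitory Smad6. Of the 25 genes of this list with a non-EA-HFSC peak the 6 made up 24.0% (11.5 to 43.4%), an interval that includes the 15.2%. At Grem1, H3K4me3 covered 6702 bp in EA-HFSCs, 4031 bp in LC-HFSCs, 2261 bp in non-EA-HFSCs and 2526 bp in non-LC-HFSCs. At Gdf10 the lengths were 5750, 3680, 1407 and 1128 bp, so that both genes had more cover in each stem cell list than in any non-HFSC list. Fst went the other way, with 6106, 5551, 6455 and 5855 bp. Smad6 had 6767, 6790, 6413 and 2894 bp.

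In the other pathway lists 1 to 3 genes had a region. Of 56 Wnt pathway genes 2 had a region (Sfrp1 and the ligand gene Wnt7b), although 29 had some non-EA-HFSC H3K27me3 peak and 25 an EA-HFSC peak. Of 32 FGF genes 2 had one (Fgf18 and Fgf23), and Fgf23 also had an EA-HFSC peak in the window. The Notch effector genes Hey2 and Heyl were the 2 of 18 Notch genes, and both had EA-HFSC and LC-HFSC H3K27me3 peaks in the window, so neither TSS was free of a peak in stem cells. In the axon guidance list 3 of 49 genes (Nrp1, Sema6a and Unc5a) and in the Eph and ephrin list 1 of 23 (Efnb3) had a region. The gene of the sebaceous gland regulator Prdm1, the hair matrix factor gene Msx2, the fibroblast collagen gene Col1a1, the nerve factor gene Egr2 and the Polycomb gene Cbx8 were the single members of their lists. Of the lists in this paragraph, the interval of the Notch list lies above 2.36% (11.1%, 3.10 to 32.8%) and those of the others include it. Among the 7 Notch genes with a non-EA-HFSC peak the share was 28.6% (8.22 to 64.1%), beside 15.2% of all such genes.

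No region lay at the starts of 22 epidermal differentiation genes, of which 0 had a non-EA-HFSC H3K27me3 peak. Nor did 7 CDK inhibitor, 6 Merkel cell, 13 endothelial, 15 leukocyte, 11 melanocyte or 10 muscle genes have a region, although each of these lists held 3 to 6 genes with a non-EA-HFSC peak. With 2.36% of all genes having a region, lists of this size would hold few or none, and nothing is read from these zeros. Of the classic Polycomb targets, 0 of 40 Hox genes and 6 of 120 other homeobox genes had a region (5.00%, 2.31 to 10.5%), where the interval of the latter includes the 2.36% of all genes, while 20 and 98 of them had a non-EA-HFSC peak and 24 and 94 an EA-HFSC peak. Among keratin genes 4 of 50 had a region (Krt19, Krt26, Krt75 and Krt82), with an EA-HFSC peak at 4 of the 50, and none of these 4 genes had H3K4me3 within 5000 bp of the start in any population, although an EA-HFSC H3K4me3 peak reached the Krt19 region farther inside the gene. These families were chosen after the data had been seen. Potassium channel genes gave 6 of 96, collagen genes 4 of 43, solute carrier genes 14 of 336 (4.17%, 2.50 to 6.87%) and olfactory receptor genes 2 of 1113 (0.180%, 0.0493 to 0.653%), beside 2.36% of all genes.

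**Figure D4:**
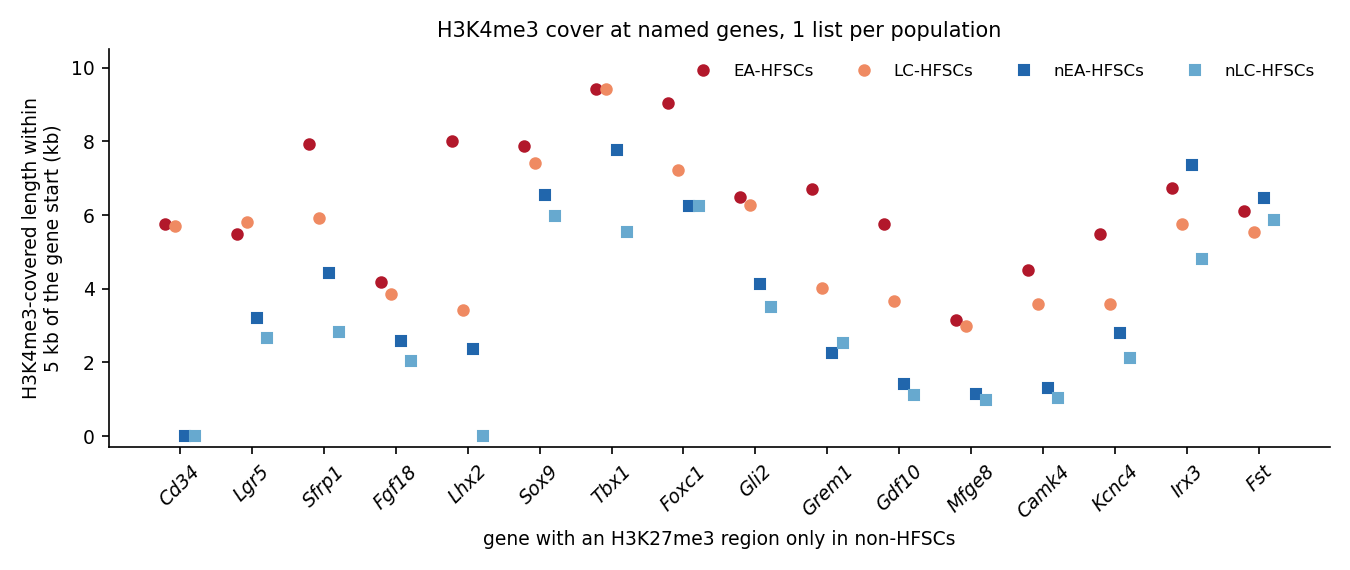
Length covered by H3K4me3 peaks within 5 kb of the gene start (kb, y axis) at 16 genes with a non-HFSC region (x axis), 1 point per population's list with circles for HFSCs and squares for non-HFSCs. Both circles lie above both squares at most of the genes, and the order differs at Irx3 and Fst.

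The 10 regions with the highest non-EA-HFSC score at a gene start lay at Mfge8, Irx3, Camk4, Ltbp2, Kcnc4, Tnfaip2, Slc30a3, Fbxo44 with Fbxo2, Tbc1d30 and Dhh. The strongest was chr7:86281245-86294243 at Mfge8, which encodes a secreted protein that bridges apoptotic cells and integrins, with scores of 1735 and 460. H3K4me3 covered 2802 bp of it in EA-HFSCs, 2611 bp in LC-HFSCs, 1887 bp in non-EA-HFSCs and 897 bp in non-LC-HFSCs. An LC-HFSC H3K27me3 peak lay 1594 bp from it, inside the TSS window. At Camk4, a calcium and calmodulin-dependent kinase gene, the region had a score of 1112 and H3K4me3 over 4521, 3581, 1308 and 1035 bp. At Kcnc4, a voltage-gated potassium channel gene, the score was 1043 and the lengths 5492, 3588, 2792 and 2130 bp. Both genes had more H3K4me3 in each stem cell list than in any non-HFSC list. At Irx3, a homeobox gene, with a score of 1155, the order was different, with 1115, 301, 1965 and 211 bp inside the region.

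Tnfaip2, a gene induced by tumour necrosis factor, had the second widest region, chr12:112671891-112698021, which spanned 26131 bp with scores of 1029 and 119 and held no H3K4me3 in any population. The third widest, of 20748 bp, lay over the start of Klhl22, a Cullin adaptor gene, with scores of 414 and 1135, and the fifth, of 19759 bp, lay 54050 bp from Calcoco1. The other high-scoring regions at a gene start without any H3K4me3 were at Tubb1, Snhg11, Tmem91 and Meox1, with non-EA-HFSC scores of 821, 584, 454 and 439. Tubb1 encodes a platelet tubulin and Meox1 a homeobox factor of the somites.

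Of the 20 regions with H3K4me3 in both HFSC populations alone, 8 lay at a gene start. The highest-scoring were at Begain, Cd34, Gprc5c, Rpl26 and at the shared start region of Sgce and Peg10, a pair of imprinted genes. At Begain the scores were 869 and 235, with H3K4me3 over 2021 bp (EA-HFSCs) and 1259 bp (LC-HFSCs). At Sgce and Peg10 they were 127 and 79.3, with 3085 and 3059 bp. At Gprc5c and Rpl26 H3K4me3 reached only 569 and 547 bp, and 197 and 191 bp, into the region. Chosen after their values were seen, 3 of the distant ones lay 27242 bp from Sox9, 40498 bp from Mfge8 and 46427 bp from Shisa2, which are themselves GUB genes with a region at the TSS. Of the 4 regions with the opposite pattern, 1 lay at a gene start, that of Loxl1, which encodes an elastin crosslinking enzyme, with 1722 bp of H3K4me3 in non-EA-HFSCs and 1312 bp in non-LC-HFSCs. An EA-HFSC H3K27me3 peak lay 984 bp from that region.

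Some non-HFSC regions lay in runs. No matching count for all non-EA-HFSC peaks or for shared peaks is given here, so runs are not read as particular to the members. Joined over gaps below 50 kb, a distance chosen after the data had been seen, the members formed 1611 runs, of which 1129 held a single member and 204 held 3 or more, with 909 members in all. The longest by members, chr15:102515108-102680759, held 12 members over 165652 bp, 114800 bp of them inside members. It contained 29 non-LC-HFSC H3K27me3 peaks and 0 EA-HFSC or LC-HFSC peaks, and Calcoco1 was the only protein-coding gene with its start there. H3K4me3 peaks in this run numbered 4 in EA-HFSCs, 3 in LC-HFSCs, 5 in non-EA-HFSCs and 3 in non-LC-HFSCs. The next run, on chromosome 1 with 11 members, held 1 EA-HFSC H3K27me3 peak among 19 non-EA-HFSC peaks.

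H3K9me3, a mark of heterochromatin, was examined at the same regions. An EA-HFSC H3K9me3 peak overlapped 379 members (14.6%, 13.3 to 16%), beside 28.5% of all non-EA-HFSC peaks and 61.2% of shared peaks, both of which include regions with an EA-HFSC H3K27me3 peak. Of the 6550 non-EA-HFSC peaks without a peak of any other population 7.51% had one, so that the members lay between these sets. With all 4 H3K27me3 lists cut to scores of at least 100, the EA-HFSC share of the regions given by the rule was 30.9%. For the 529 members with both non-HFSC scores at that level it was 22.3%. In LC-HFSCs 6 members had one (0.231%, beside 0.269%), in non-EA-HFSCs 108 (4.16%, 3.46 to 5.00%, beside 3.99%) and in non-LC-HFSCs 273 (10.5%, 9.40 to 11.8%, beside 9.55%). No population had H3K9me3 at 1976 members (76.2%), beside 66.8% of all non-EA-HFSC peaks. At gene starts the EA-HFSC share was 24.7% of 531 members, beside 51.8% of all such peaks. Most of these H3K9me3 peaks were weak, and with a score of at least 100 the shares were 1.20% and 0% in EA-HFSCs and LC-HFSCs, and 1.31% and 1.16% in the matching non-HFSCs. Shared peaks were wider than members, with a median of 4972 bp, which bears on any count of overlaps.

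The sequence under the regions differed by H3K4me3 class. Pooled over the 2590 members on assembled chromosomes, GC content was 47.9% and the observed to expected CpG ratio 0.265, beside 47.6% and 0.282 for all non-EA-HFSC peaks, 48.1% and 0.314 for shared peaks, and 41.8% and 0.191 for the genome. The 297 members with H3K4me3 in all 4 populations had a ratio of 0.408, the 20 with H3K4me3 in HFSCs alone 0.299, the 105 with H3K4me3 in EA-HFSCs alone 0.280 and those with none 0.216. Upstream of the gene start, the 528 genes with a region held a median of 12.0 CpGs in 250 bases. The 294 of them with H3K4me3 at the TSS in all 4 populations held 15.0, and the 104 with H3K4me3 in none held 3.50. The regions without H3K4me3 thus had the lowest pooled CpG ratio of the classes listed, though above the 0.191 of the genome. Regions at gene starts carried H3K4me3 more often, and the ratios were not split by position.

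**Figure D5:**
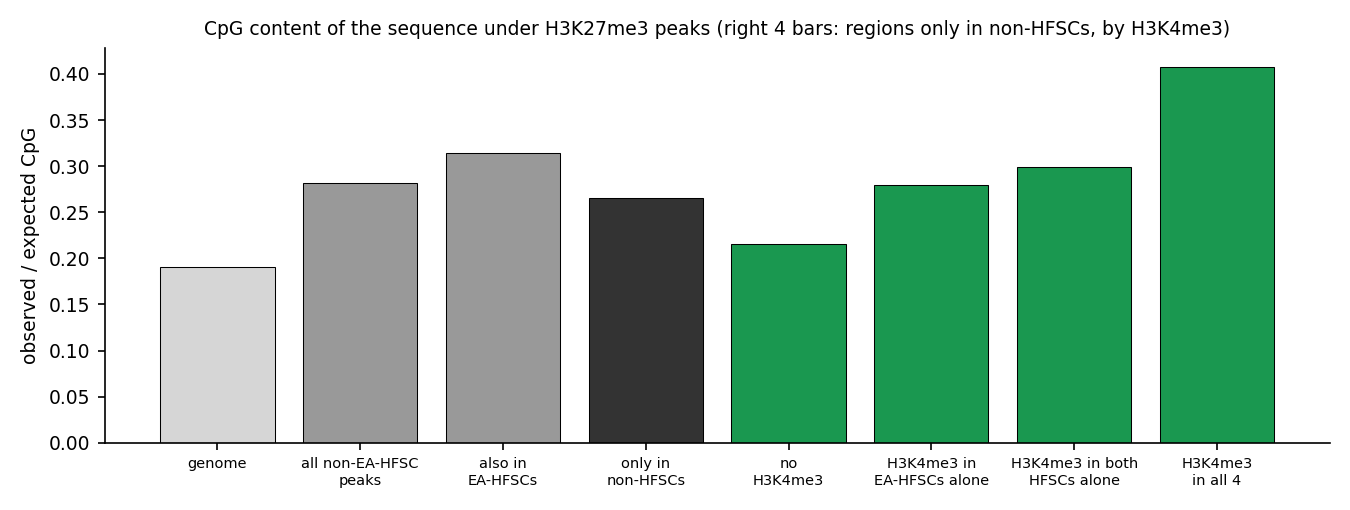
Observed to expected CpG ratio (y axis) of the sequence under sets of H3K27me3 peaks and of the genome, pooled over each set. The right 4 bars split the non-HFSC regions by the populations with H3K4me3 and run from 0.216 without H3K4me3 to 0.408 with H3K4me3 in all 4.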

How the data were processed

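Peak lists of H3K4me3, H3K27me3 and H3K9me3 in 4 sorted populations were analysed. The 4 IgG samples served as background in the peak calling and have no list of their own here. Reads were trimmed, aligned to mm9 with Bowtie2, filtered and pooled over experimental replicates by the authors, and peaks were called with MACS 1.4, with the IgG reads of each population as its control. The deposited score is a peak's p-value as a negative log10, multiplied by 10, and the lowest scores, 50 for H3K4me3 and 40 for the other marks, correspond to 1e-05 and 0.0001. Scores depend on depth, which is unknown here, and were not compared between lists. The study states that reads did not saturate H3K27me3 and H3K9me3 peak detection.

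Overlaps of at least 1 bp, distances and gene windows were computed with Python 3.11.15 and numpy 2.4.6. The overlap step was checked on 20000 simulated peaks (4 of 4 settings exact) and against bedtools 2.31.1, which also gave 2594 members. Positions are 1-based on mm9, with the NCBIM37 sequence and GENCODE vM1 genes, and 0 peaks ran past the end of a chromosome. The 4 members on unplaced sequence entered no step on genes or sequence. The TSS is the annotated gene start, with a window of 3000 bp to either side. Lists of genes were written for this work, and the GUB, GDB and constantly expressed lists are symbols from the study's supplementary data. The members and the lists were chosen with earlier results of these data known. Named regions are the 10 with the highest non-EA-HFSC score at a TSS, the 5 widest, the 5 highest-scoring at a TSS in each H3K4me3 class, and the members at genes of the lists. Genes of the symbol families (keratins, homeobox genes and the like), H3K4me3 cover within 5000 bp and the runs of regions were chosen after the data had been seen. Intervals are 95% Wilson intervals and cover counting error only. Some items that met these rules are not reported here. The alternatives varied the score, overlap, distance, merging of peaks, chromosomes, list length, the LC-HFSC list and the TSS window.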

Additional observations from a re-analysis of the deposited data

How the results depend on the processing

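Each list holds pooled replicates, so a difference between populations has no replicate error, no sample could be left out, and read depth is unknown. No paired analysis was possible because there is 1 list per mark and population and no test. Over 15 values and 19 alternatives, 93 of 175 recomputed values stayed within the 95% interval of the value reported, or within 1.5 times it for gene counts, and 82 moved. None changed which stage-matched list had more H3K4me3 at early anagen, except for regions under 1000 bp, where EA-HFSCs and non-EA-HFSCs were level. Shares with H3K4me3 are given in the order EA-HFSCs, LC-HFSCs, non-EA-HFSCs, non-LC-HFSCs, and the cause of a shift was not tested. With H3K27me3 scores of at least 50 they were 26.3, 16.6, 21.6 and 17.7%, H3K9me3 shares were 17.9% (EA-HFSCs) and 11.8% (non-LC-HFSCs), and 4.90% of regions lay in promoters. With scores of at least 100 there were 946 regions with H3K4me3 shares of 43.1, 27.8, 37.2 and 31.2% and H3K9me3 shares of 30.9% (EA-HFSCs), 7.40% (non-EA-HFSCs) and 16.3% (non-LC-HFSCs). Of these regions 8.79% lay in promoters and 49.7% between genes, and they met 37 GUB genes, 2 bulge transcription factor genes and 2 bulge surface or secreted genes. With that minimum for non-HFSC peaks alone there were 529 regions at 206 genes, with H3K4me3 shares of 47.3, 32.3, 39.9 and 34.0%, H3K9me3 shares of 22.3, 6.62 and 17.4% in the same 3 populations, 7.95% in promoters, 47.7% between genes, and 31 GUB, 2 transcription factor and 2 surface or secreted genes. With at least 50% of the region covered by non-LC-HFSC peaks there were 1270 regions at 286 genes, H3K4me3 shares were 25.4, 16.3, 20.5 and 16.9%, the non-LC-HFSC H3K9me3 share was 12.0%, and 32 GUB and 2 surface or secreted genes were met. Without HFSC H3K27me3 peaks within 5000 bp the H3K4me3 shares were 26.5, 16.4, 21.5 and 17.6%. With peaks under 1000 bp apart merged they were 26.3, 16.1, 21.7 and 17.4%, the EA-HFSC H3K9me3 share was 16.1%, and 5.89% lay in promoters. Lists cut to equal numbers of H3K27me3 peaks gave an EA-HFSC H3K9me3 share of 16.8%. Counting H3K4me3 peaks within 1000 bp gave 24.4, 15.3, 20.6 and 16.9%, and H3K4me3 scores of at least 100 gave 19, 10.1, 15.2 and 11.7%. Lists cut to equal numbers of H3K4me3 peaks gave 16.7% (EA-HFSCs), 11.6% (non-EA-HFSCs) and 10.8% (non-LC-HFSCs). By width the shares were 5.56, 0, 5.56 and 0% under 1000 bp, 12.7, 7.64, 10.2 and 8.21% from 1000 to 3000 bp, and 31.1, 19.6, 25.3 and 21% above. With H3K9me3 scores of at least 100 the H3K9me3 shares were 1.20, 0, 1.31 and 1.16%. Asking for the gene start inside the region left 317 genes.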
